A study of Oryza sativa Japonica Group with 24 samples.

Results

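The 200 loci described here were the rice genes whose transcript level stood highest in short-day anthers at noon and in no other group. They were chosen by their measured levels in these libraries, from 55986 loci: counts were scaled by the library total to CPM (counts per 1e6 counts), moved to log2(CPM+1) and averaged over the 2 replicates of each of 12 groups, and the loci were ranked by the difference between the short-day 12:00 mean and the highest of the other 11 group means, which is called the margin below. The study asked how photoperiod changes the anther transcriptome through the day. Anthers of the japonica variety 9522, wild type and grown in paddy fields, were collected at the stage of pollen mitosis I. Short-day (SD) plants received 12 h of light because black cloth covered them at the end of the natural day, and long-day (LD) plants received the natural light period of about 14 h, in both cases from panicle initiation until sampling. Sampling every 4 h, from 08:00 on through 04:00 of the next night, with 2 biological replicates per photoperiod and time, gave 24 RNA-seq libraries of 18043740 to 27529649 counts each. The level at SD noon chose the loci, so the height of the SD12:00 peak is a description and carries no test.

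The anther is the male organ of the flower. Its innermost wall layer, the tapetum, feeds the developing pollen with sugars, lipids and wall materials and breaks down as the pollen matures, while pollen passing through mitosis fills with starch and builds its own transcript set. The circadian clock and light set the daily timing of many plant transcripts, among them genes of starch turnover, cell wall loosening and sugar transport.

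The SD12:00 libraries stood apart from all others in the pollen sum and in OsCAB1R, while their tapetum sum lay within the range of the other SD libraries, and this holds for every result below that rests on them. The summed level of 8 pollen genes (pollen allergens, Ole e I family genes and OsMATL) was 1.52 and 0.481 CPM in the SD12:00 libraries, against 35.8 to 556 CPM in the 10 other SD libraries and 578 to 3261 CPM in the 12 LD libraries, and 1 and 7 of the 8 genes had no count at all in the 2 SD12:00 libraries. The summed level of 3 tapetum and earlier anther genes (OsABCG15, OsLAP6 and HTH1) was 693 and 492 CPM in the SD12:00 libraries, 81.7 to 1209 CPM in the other SD libraries and 0.379 to 28.8 CPM in the LD libraries. The paper names these 3 among the genes that differed between SD and LD at every time in these same libraries. OsCAB1R, a chlorophyll a/b binding protein gene and the marker of green tissue, was at 755 and 794 CPM in SD12:00, 5.48 to 552 CPM in the other SD libraries and 2.37 to 502 CPM in the LD libraries. None of these 12 markers was among the 200 loci. In bulk tissue a change in the share of a cell type and a change of RNA per cell cannot be told apart, and the part of tissue composition or stage in the levels below was not tested.

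**Figure D1:**
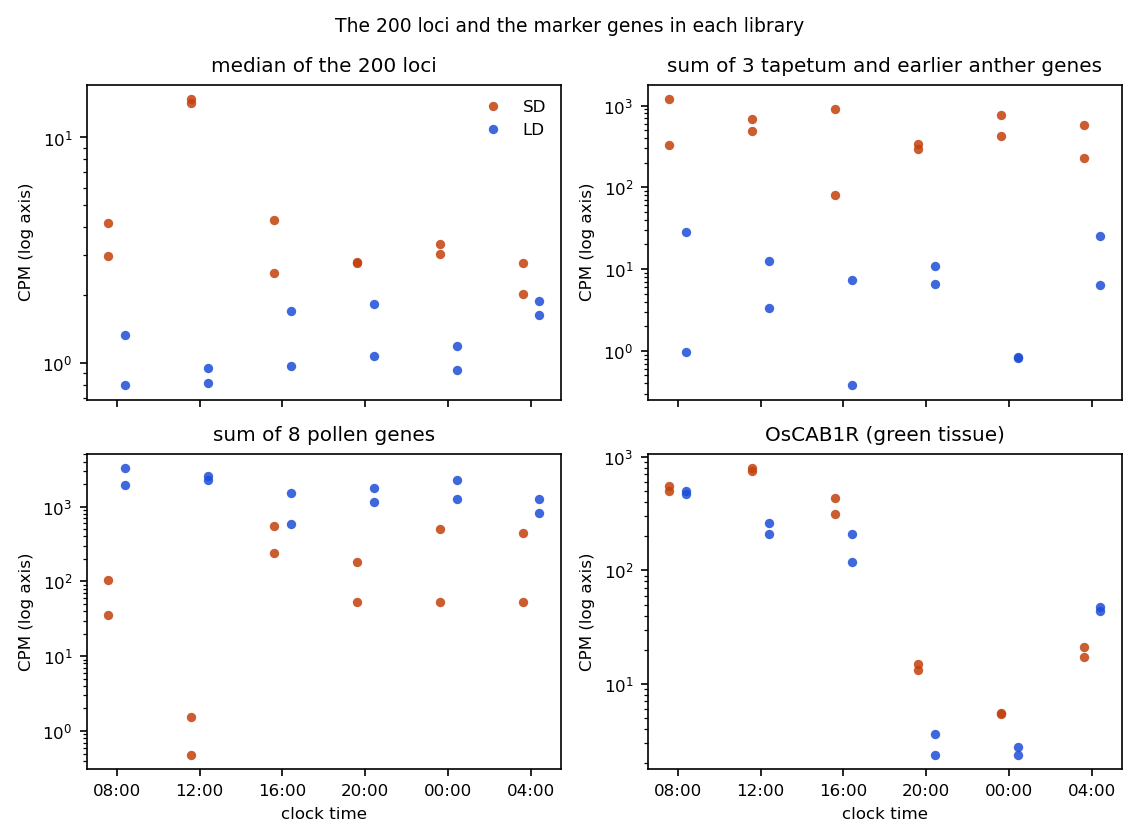
Each point is 1 library, with clock time on the horizontal axis and CPM on a log axis: the median over the 200 loci, the summed level of 3 tapetum and earlier anther genes, the summed level of 8 pollen genes, and OsCAB1R. The SD12:00 libraries have the highest median of the 200 loci (14.3 and 14.8 CPM) and the lowest pollen sums (1.52 and 0.481 CPM).

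The margin ran from 6.29 to 1.02 on the log2 scale, with a median of 1.28. The SD12:00 mean of the loci ran from 1.26 to 4811 CPM with a median of 14.4 CPM, so that 26 loci reached 100 CPM and 77 stayed under 10 CPM. At the limit of the rule, LOC_Os12g24020, LOC_Os02g19770 and LOC_Os01g63830 were the last loci taken, with margins of 1.03, 1.02 and 1.02, and LOC_Os06g51050 (Cht-3), LOC_Os01g19020 and LOC_Os08g31870 the first left out, each with a margin of 1.02. The SD12:00 replicates lay close together: the ratio of replicate 2 to replicate 1 had a median of 0.980 over the loci, and 192 of 200 were within 2-fold. In 198 loci the lower SD12:00 library was above each of the 22 other libraries. The exceptions were LOC_Os03g14140 and LOC_Os06g49770, in which 1 SD08:00 library (8.02 and 33.9 CPM) was above the lower SD12:00 library (7.34 and 33.8 CPM).

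**Figure D2:**
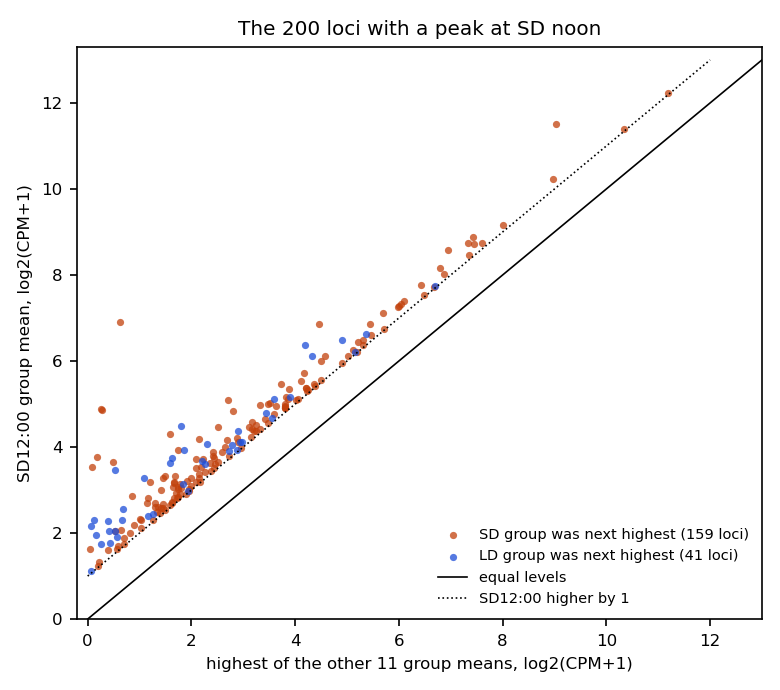
The SD12:00 group mean of each of the 200 loci (vertical axis) against its highest other group mean (horizontal axis), both in log2(CPM+1). Points are coloured by whether that next group was SD (159 loci) or LD (41 loci), and all lie above the line of equal levels because the rule chose them so.

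The next highest group after SD12:00 was an SD group for 159 loci and an LD group for 41. The neighbouring times led, with SD08:00 next for 75 loci and SD16:00 for 45, followed by SD00:00 for 24 and LD04:00 for 12. The median level over the 200 loci was 14.4 CPM in SD12:00, and was 3.53, 3.71, 2.77, 3.03 and 2.46 CPM in SD anthers at 08:00, 16:00, 20:00, 00:00 and 04:00. In LD anthers the median ran only from 0.936 CPM at 12:00 to 1.55 CPM at 04:00. Of the 200 loci, 64 had every LD group mean under 1 CPM, and 31 had every group mean other than SD12:00 under 1 CPM.

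The loci with the largest margins were near silent outside SD noon. LOC_Os01g67690 had 2559 and 2045 counts in the SD12:00 libraries (129 and 109 CPM), against 0 to 31 counts in the other SD libraries and 0 to 6 counts in the LD libraries. Its next highest group was SD08:00, where 1 replicate held 1.24 CPM and the other 0.0542 CPM, and the SD12:00 mean was 184-fold above that group mean. LOC_Os01g01730 and LOC_Os11g43230 behaved alike, with 625 and 486 counts and with 644 and 457 counts at SD12:00, and at most 11 and 12 counts in any other SD library and 2 and 1 counts in any LD library. The neighbouring loci LOC_Os01g05530 and LOC_Os01g05510 had 10.98 and 14.3 CPM and 9.97 and 11.4 CPM at SD12:00, and no more than 5 and 3 counts in any other SD library or 2 counts in any LD library. These 5 loci had no annotation in the study's sheets beyond a term of DNA metabolism for LOC_Os01g67690.

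A further 6 loci of the 15 with the largest margins kept a low level elsewhere. LOC_Os04g49840 had 12.5 and 10.7 CPM at SD12:00 and at most 0.572 CPM in the other SD libraries and 0.284 CPM in the LD libraries, and LOC_Os08g38350 had 22.5 and 15.5 CPM at SD12:00, with maxima of 3.17 CPM in the other SD and 1.47 CPM in the LD libraries. LOC_Os02g47390 had 35.3 and 31.3 CPM at SD12:00 and at most 7.11 CPM in the other SD and 4.62 CPM in the LD libraries, and LOC_Os02g43820 had 8.90 and 8.61 CPM at SD12:00 with maxima of 1.08 and 1.28 CPM. In LOC_Os03g42235 and LOC_Os05g45410 the next highest group was LD12:00, the same clock time under the other photoperiod. LOC_Os03g42235 had 7.74 and 13.1 CPM at SD12:00 and 0.616 and 0.301 CPM at LD12:00, and LOC_Os05g45410 had 23.5 and 19.7 CPM at SD12:00 and 1.95 and 3.09 CPM at LD12:00. LOC_Os04g56570, which encodes a heavy metal-associated domain protein, was close to the limit of detection outside SD noon, with 67 and 66 counts at SD12:00, no count in 9 of 10 other SD libraries and at most 2 counts in any LD library.

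**Figure D3:**
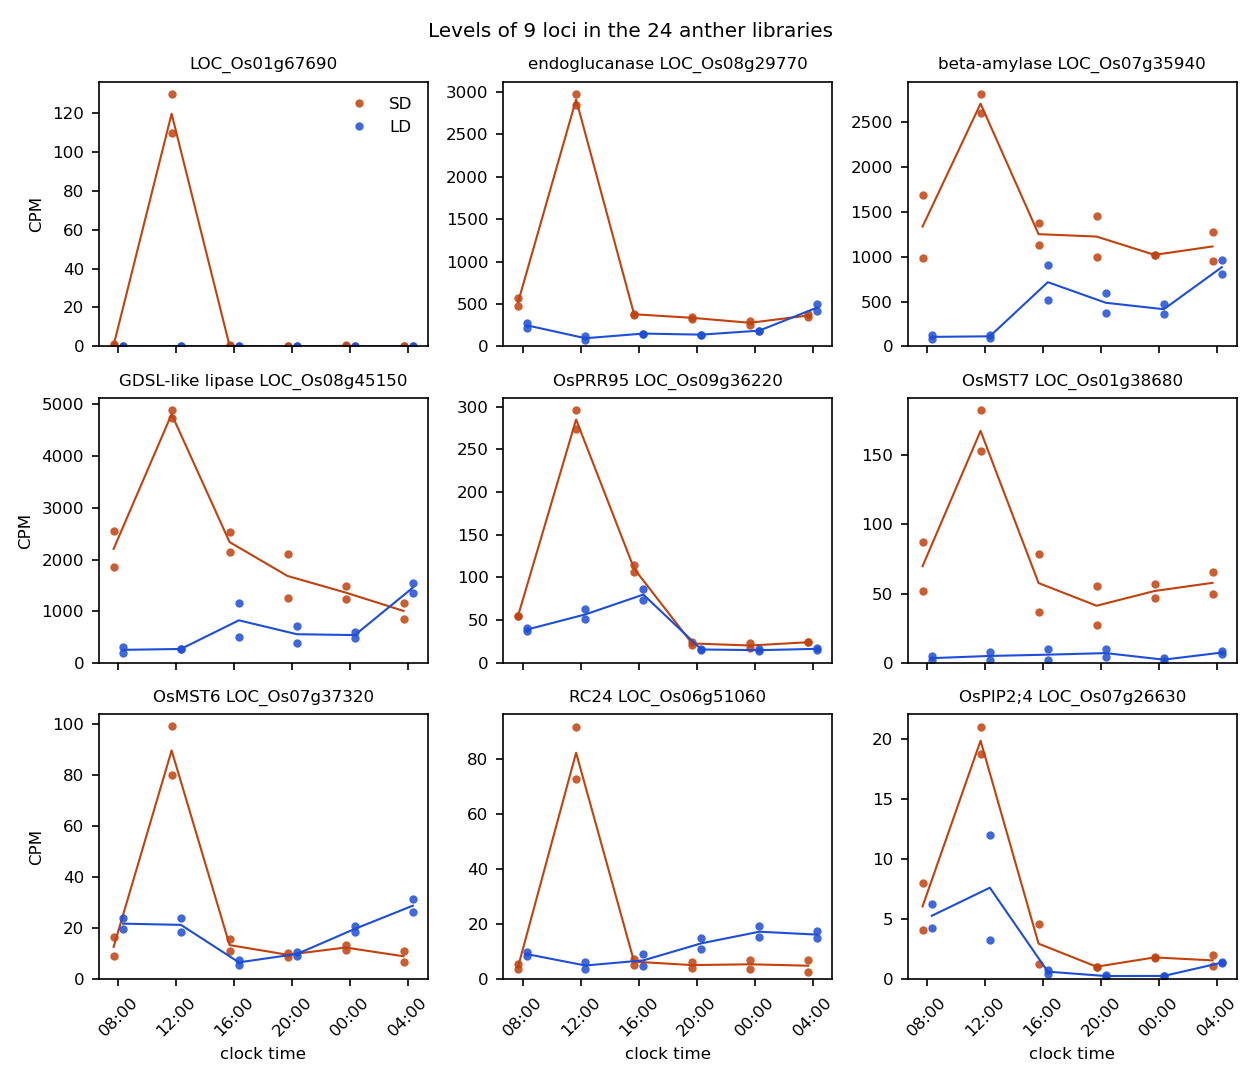
CPM of 9 loci in the 24 libraries against clock time, with SD and LD in separate colours; points are libraries and lines join the means of 2 replicates, on linear axes that start at 0. The SD12:00 points are the highest in every panel, while the LD lines differ in shape, from low beside SD (OsMST7, 1.496 to 10.1 CPM) to highest at 04:00 (OsMST6) or 16:00 (OsPRR95).

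Of the 10 most abundant members, 5 were described as enzymes of lipid, wall or starch metabolism, 1 as a lipid transfer protein, and 4 had no description. Descriptions came from the study's lists of carbohydrate, transport, lipid, rhythm and anther genes, so these numbers do not give the functional make-up of the members. LOC_Os08g45150, a GDSL-like lipase, an enzyme class that hydrolyses ester bonds of lipids, had 4733 and 4889.6 CPM at SD12:00, and in the other SD libraries 850 CPM at the lowest and 2557 CPM at the highest, against 197.4 to 1550.4 CPM in LD libraries. LOC_Os08g29770, an endoglucanase, which cuts beta-linked glucan chains of the cell wall, had 2845 and 2977 CPM at SD12:00, 257 to 569 CPM in the other SD libraries and 76.5 to 498 CPM in LD libraries, so that its SD12:00 mean was 5.57-fold above SD08:00, its next group. LOC_Os07g35940, a beta-amylase, which releases maltose from starch, had 2599.9 and 2820.1 CPM at SD12:00, and its SD12:00 mean was 2.02-fold above SD08:00, its next group. Outside noon the SD and LD libraries of the endoglucanase, the beta-amylase and the lipase overlapped: the LD04:00 libraries of the endoglucanase (498 and 421 CPM) were above both SD04:00 libraries (380 and 349 CPM). Of the other 7 among the 10 most abundant, LOC_Os10g05990 had 1049 and 1369 CPM at SD12:00, and LOC_Os03g18130, LOC_Os10g05930 and LOC_Os04g58200 had SD12:00 means of 478, 429.7 and 419 CPM. The remaining 3 are OsXTH8, ONI2 and LTPL25, described with their groups.

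Annotation was sparse. The study's sheets and text gave a description for 36 of the 200 loci and a gene ontology term for 61, and 125 had neither. By those descriptions, 12 members belonged to the study's carbohydrate list of 422 genes, 11 to its transport list of 675, 6 to its lipid list of 231, 7 to its list of 51 anther genes and 1 to its 12 rhythm genes, while none of its 30 transcription factor hub genes was a member. The study chose these lists on the same libraries, so these counts are not independent evidence of any direction. Each described member was on 1 or more of these lists, so genes of other functions could hardly have a description.

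Among the 12 carbohydrate members were 3 chitinases, enzymes that degrade chitin and are known from plant defence. RC24 (LOC_Os06g51060) had 91.6 and 72.7 CPM at SD12:00, against 2.84 to 7.53 CPM in the other SD libraries and 3.82 to 19.3 CPM in the LD libraries. CHIT1 (LOC_Os02g39330) had 5.36 and 4.49 CPM at SD12:00 and at most 0.396 CPM in the other SD and 0.771 CPM in the LD libraries, and chi11 (LOC_Os03g04060) had 12.4 and 15.7 CPM at SD12:00 with maxima of 4.31 and 6.46 CPM. In all 3 an LD group was next highest, and one more chitinase locus, Cht-3, fell just outside the limit. Since chitinase genes are related in sequence and the handling of reads that match several loci was not given, their separate values are uncertain. OsXTH8 (LOC_Os08g13920), a xyloglucan endotransglucosylase/hydrolase that cuts and rejoins wall xyloglucan, had 555 and 585 CPM at SD12:00, 129 to 307 CPM in the other SD libraries and 32.3 to 177 CPM in the LD libraries. The second endoglucanase, LOC_Os01g21070, was far less abundant than the first, at 4.05 and 6.31 CPM at SD12:00 and at most 1.90 CPM elsewhere in SD. The other carbohydrate members were 2 beta-galactosidases, a glucan endo-1,3-beta-glucosidase, a family 16 glycosyl hydrolase, a phosphoenolpyruvate carboxykinase (an enzyme that leads organic acids towards sugar synthesis) and the beta-amylase, with SD12:00 means between 7.57 and 2710.0 CPM.

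Lipid members were 2 enzymes of fatty acid elongation and 4 GDSL-like lipases. ONI2 (LOC_Os10g28060), a fatty acid elongase that makes very-long-chain fatty acids, had 383 and 380 CPM at SD12:00, 72.6 to 166 CPM in the other SD libraries and 15.5 to 79.0 CPM in the LD libraries, with no overlap between SD12:00 and any other library. LOC_Os09g19650, a 3-ketoacyl-CoA synthase, had 10.4 and 14.1 CPM at SD12:00, at most 4.47 CPM in the other SD and at most 3.42 CPM in the LD libraries. Among the lipases, LOC_Os04g42860 had 32.0 and 38.1 CPM at SD12:00 and was next highest in LD04:00, and LOC_Os09g04710 had 31.2 and 36.6 CPM and was next highest in SD08:00. The transport list adds 4 lipid transfer proteins, small secreted proteins that bind lipids. LTPL25 (LOC_Os11g02350) had counts in every library, with 358 and 514 CPM in SD12:00 and 30.2 to 108 CPM in LD libraries, whereas LTPL63 (LOC_Os07g29230) had 16.9 and 11.9 CPM at SD12:00, 0.321 to 2.98 CPM in the other SD libraries and no count in 9 of 12 LD libraries. LTPL60 (LOC_Os06g12440) had no count in 10 of 12 LD libraries and 3.59 and 2.73 CPM at SD12:00, and LTPL122 (LOC_Os04g46830) had 4.10 and 7.004 CPM.

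The sugar and water transporters showed how unlike the members were away from noon. OsMST7 (LOC_Os01g38680), a monosaccharide transporter, had 182 and 152 CPM at SD12:00 and 27.3 to 87.3 CPM in the other SD libraries, against 1.496 to 10.1 CPM in the LD libraries, and no SD library overlapped an LD library. OsMST6 (LOC_Os07g37320), of the same transporter family, had 99.0 and 80.1 CPM at SD12:00, but in the other SD libraries it lay at 6.85 to 16.5 CPM, within the range of the LD libraries (5.77 to 31.3 CPM). Its LD level was highest at 04:00, with 31.3 and 26.4 CPM. OsPIP2;4 (LOC_Os07g26630), a plasma membrane aquaporin, had 18.7 and 21.0 CPM at SD12:00 and was next highest in LD12:00, where the replicates differed widely (3.29 and 12.0 CPM). A citrate transporter, LOC_Os09g31130, had 87.9 and 89.7 CPM at SD12:00, 25.7 to 44.2 CPM in the other SD libraries and 5.97 to 33.7 CPM in the LD libraries. Of the 2 remaining transport members, LOC_Os01g52200 is described as a subunit of the mitochondrial ATP synthase (7.94 and 6.63 CPM at SD12:00) and LOC_Os07g01214 as a transposon protein (33.2 and 33.0 CPM), which is no transporter by that description.

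OsPRR95 (LOC_Os09g36220), a pseudo-response regulator of the circadian clock, was the only one of the 12 rhythm genes among the members. It had 55.5 and 55.1 CPM in SD anthers at 08:00, 296 and 274 CPM at 12:00, 114 and 106 CPM at 16:00, and 17.5 to 24.7 CPM from 20:00 to 04:00. In LD anthers it had 40.9 and 37.4 CPM at 08:00, 50.9 and 62.7 CPM at 12:00, 86.4 and 73.6 CPM at 16:00, and 13.4 to 17.6 CPM from 20:00 to 04:00. The gene thus kept a daytime peak under both photoperiods, with its highest LD group at 16:00 and its highest SD group at 12:00. At each of the 5 other times both SD libraries were above both LD libraries, which at single times held for 29.3% to 45.9% of expressed genes. The SD to LD difference of OsPRR95 did not pass the test at any of them, and at 16:00 no tested gene did. Its log2 fold change lay between 0.31 (at 00:00) and 0.51 (at 16:00), with adjusted p from 0.0755 to 0.566 (edgeR quasi-likelihood test with Benjamini-Hochberg adjustment). The change over the 6 LD times passed the test (adjusted p = 3.26e-05), as did the change over the 5 SD times other than 12:00 (adjusted p = 0.000166).

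The study took its 51 anther genes from those that differed between SD and LD at all 6 times in these libraries. A difference between SD and LD was thus built into the list, and the separation described here is no test. In each of the 7 members of the list of anther genes, OsMST7 among them, the lowest SD library was above the highest LD library. LOC_Os08g34330, an SMP-30/gluconolactonase-like protein, had 54.4 and 33.8 CPM at SD12:00, 2.60 to 18.2 CPM in the other SD libraries and 0 to 1.14 CPM in the LD libraries. The peroxidase LOC_Os08g20730 had 30.8 and 30.2 CPM at SD12:00, at most 14.8 CPM in the other SD and 2.73 CPM in the LD libraries. QHB (LOC_Os01g63510), a homeobox gene known from the quiescent centre of the rice root, had 12.4 and 8.82 CPM at SD12:00, 2.68 to 6.23 CPM in the other SD libraries and 0.154 to 1.63 CPM in the LD libraries. The zinc finger gene ZOS11-02 (LOC_Os11g25610) and the BTB domain gene MBTB44 (LOC_Os10g29100) had no count in 8 and 10 of the 12 LD libraries. For MBTB44 the lowest SD library and the highest LD library held 4 counts each (0.176 and 0.172 CPM). The remaining member of this list is the elongation factor LOC_Os01g52470. The 3 tapetum markers, which were 81.7 to 1209 CPM in SD and 0.379 to 28.8 CPM in LD libraries, belong to the same list of the study. Their separation is therefore not independent of that of the 7 members, and their part in it was not tested.

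Members were found near each other on the chromosomes more often than loci in general. By locus numbering, 24 members (12%) had another member within 5 loci, whereas 3.37% of all loci had a member within that distance, and the members formed 10 such runs. Chromosome 1 held 40 members, 20% of them, and 11.7% of all loci. All loci here include those without a count (40044 of 55986 had at least 1), and the like shares over expressed genes were not computed. The longest run was on chromosome 10, with LOC_Os10g05820, LOC_Os10g05840, LOC_Os10g05860, LOC_Os10g05910 and LOC_Os10g05930. In this run the SD12:00 replicates were close (116 and 114 CPM for LOC_Os10g05820, 413 and 446 CPM for LOC_Os10g05930), while the SD08:00 replicates differed (6.59 and 40.4 CPM, and 72.7 and 344 CPM). The 5 loci had no annotation in the sheets, and if their sequences are alike, reads could have been split among them, so they are not 5 independent observations.

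The first question beyond the noon peak is how the loci differed between SD and LD anthers at the 5 other times. The libraries of these times entered the rule only through the highest of the 11 other means. The comparisons are therefore not fully independent of the choice of loci. A locus was called when edgeR's quasi-likelihood test over all tested genes gave a Benjamini-Hochberg adjusted p under 0.05 and the fold change was at least 2-fold. At 12:00, the time used by the rule, 194 of 200 members were called higher, where 40% of all tested genes were called, 20.4% higher and 19.6% lower, and nothing is read from that count. The markers also differed between SD and LD at each of these times, and their part in the differences was not tested. At 08:00 the pollen sum was 106 and 35.8 CPM in SD and 1950 and 3261 CPM in LD, and the tapetum sum 325 and 1209 CPM in SD and 28.8 and 0.977 CPM in LD. At 16:00, 20:00, 00:00 and 04:00 the pollen sums were 52.4 to 556 CPM in SD and 578 to 2287 CPM in LD, and the tapetum sums 81.7 to 906 CPM in SD and 0.379 to 25.7 CPM in LD.

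At 08:00, SD anthers were above LD anthers for most members. The test covered 164 members, of which 91 were called higher and 4 lower in SD, and 17.7% of all tested genes were called (7.3% higher and 10.4% lower). The other 36 members did not pass the count filter in these 4 libraries, and members that passed it only through a high SD level had to differ, so the share called is not evidence about the whole set. Over all 200 members the SD mean was higher in 167 (83.5%), with a median difference of 0.99 in log2(CPM+1), and over the 23519 expressed genes (at least 1 CPM in 2 libraries) in 58.5% with a median of 0.11. OsMST7 (LOC_Os01g38680) had 87.3 and 52.2 CPM in SD and 4.69 and 2.21 CPM in LD (log2 fold change 4.21 ± 0.39 SE, adjusted p = 0.000695). The beta-amylase LOC_Os07g35940 had 990.1 and 1687 CPM in SD and 130.1 and 84.1 CPM in LD (log2 fold change 3.53 ± 0.38, adjusted p = 0.00128), and the lipase LOC_Os08g45150 was higher by 3.01 ± 0.34 (adjusted p = 0.00163). QHB (LOC_Os01g63510) was higher by 4.19 ± 0.57 (adjusted p = 0.00325) and OsXTH8 (LOC_Os08g13920) by 2.07 ± 0.25 (adjusted p = 0.00209). These 5 calls held without each library in turn. QHB was low in LD, however, with 0.154 to 1.63 CPM and a median of 0.352 CPM over the LD libraries. Its call may therefore follow from the SD level that passed the filter. LTPL63 (LOC_Os07g29230) had 1.85 and 2.98 CPM in SD and 0.0988 and 0 CPM in LD, which is 2 counts and none, so it passed the filter only through SD. The number of members called dropped to 39 without LD08:00 replicate 2 and to 62 without LD08:00 replicate 1.

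**Figure D4:**
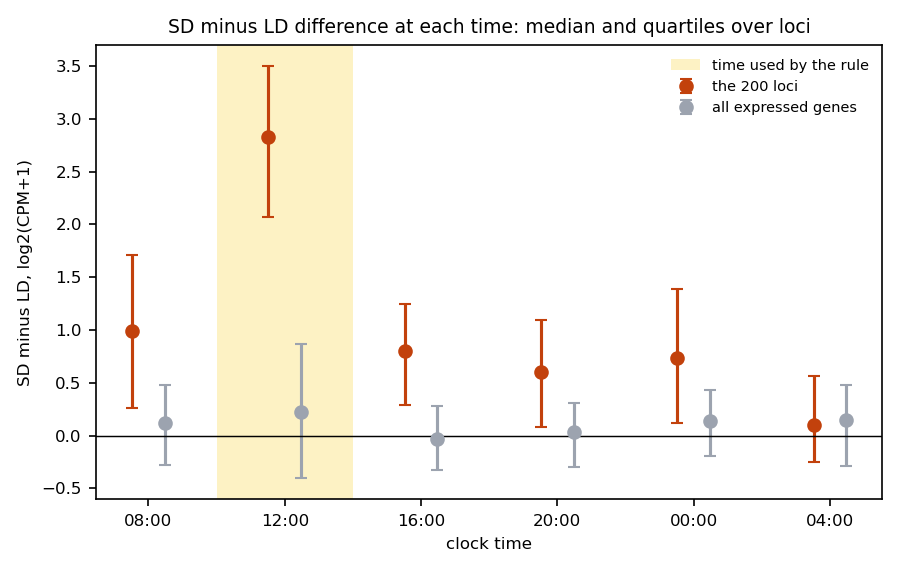
The SD minus LD difference of group means in log2(CPM+1) at each clock time, as the median (point) and quartiles (bars) over the 200 loci and over 23519 expressed genes; the shaded 12:00 is the time used by the rule. Outside 12:00 the median of the 200 loci is highest at 08:00 (0.99) and lies at 0.10 at 04:00, beside 0.15 for all expressed genes.

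In the afternoon and night the same direction was seen with fewer calls. At 16:00 no member and none of the tested genes was called (0% of 23466). Of the 157 members tested there, 105 (66.9%) had an unadjusted p under 0.05, beside 7275 (31%) of all tested genes. DESeq2 called 72 members, all higher in SD, where it called 4.26% of all genes it tested higher and 2.63% lower. At 20:00, 36 members were called higher and 1 lower of 163 tested, where 4.99% of all tested genes were called (1.23% higher and 3.76% lower). At 00:00, 42 members were called higher and none lower of 168 tested, where 1.56% of all tested genes were called (0.753% higher and 0.804% lower). An unadjusted p under 0.05 was found for 112 members (66.7%), beside 4610 (19.7%) of all tested genes, and DESeq2 called 71 members higher and 6 lower, where it called 2.81% of all genes higher and 4.32% lower. Over all 200 members the SD mean was the higher one in 180, 156 and 169 members at 16:00, 20:00 and 00:00, that is in 90%, 78% and 84.5% of them, beside 47.1%, 52.9% and 62.0% of expressed genes. LOC_Os08g34330, the SMP-30/gluconolactonase-like gene, had 10.3 and 13.03 CPM in SD and 0 and 0.0505 CPM in LD at 00:00 (2 replicates each), that is none and 1 count in LD, so at this time it passed the filter only through SD. Without SD00:00 replicate 2 the 00:00 count was 79, and without LD16:00 replicate 1 the 16:00 count was 58. At 20:00 the count of members called was 4 without LD20:00 replicate 2 and 69 without SD20:00 replicate 1.

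At 04:00 the members divided. Of 159 tested, 31 were called higher and 15 lower in SD, where 15.9% of all tested genes were called (4.11% higher and 11.8% lower). Over all 200 members the SD mean was higher in 117 (58.5%), beside 59.9% of expressed genes, so at this time the loci as a set were not apart from the rest in that share. Of the 31 members called higher at 04:00, 29 (93.5%) were also called higher at 08:00, which is 29 of the 91 called higher then, and of the 15 called lower at 04:00 none was. Over all tested genes, 300 (31.2%) of the 960 called higher at 04:00 were also called higher at 08:00, as were 44 (1.6%) of the 2749 called lower at 04:00. Of the 15 members called lower at 04:00, 10 had their highest LD level at 04:00, as did 8 of the 31 called higher and 98 of all 200 members. A call lower in SD at 04:00 favours loci with a high LD level at that time, so nothing is read from the 10. OsMST6 (LOC_Os07g37320) had 11.2 and 6.85 CPM in SD and 31.3 and 26.4 CPM in LD (log2 fold change -1.84 ± 0.24 SE, adjusted p = 0.00604). Without LD04:00 replicate 1 its adjusted p was 0.0616, and the number of members called at this time was 7, and 14 without LD04:00 replicate 2. With library totals in place of TMM scaling, 34 members were called higher and 12 lower, and of all genes 1634 higher and 2231 lower, against 960 and 2749.

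Across the 5 other times, 100 of the 200 members were called higher in SD at 1 or more and 16 called lower at 1 or more, with no member in both. A further 28 members were tested at none of these times. Members that passed the count filter only through a high SD level had to differ, so these counts are not evidence about the whole set. Of the 24444 genes tested at 1 or more of these times, 10.1% were called higher and 16.9% lower at 1 or more, and 57 genes were in both. The 9 members called higher at 4 of the 5 times included LOC_Os04g09520, LOC_Os08g34330, LOC_Os02g49280, LOC_Os02g40840 and LOC_Os01g52470, an elongation factor. No gene was called at 16:00, so 4 was the largest number of times possible, and the like share of all tested genes was not computed. The LD libraries of LOC_Os08g34330 held none and 1 count at 00:00. They had 0.741 and 0.0514 CPM at 08:00, 0.474 and 0.180 CPM at 20:00 and 0.146 and 1.14 CPM at 04:00. Its calls at these times follow from the SD level that passed the filter. The same limit holds for LOC_Os02g49280, with at most 8 counts in any LD library. It also holds for LOC_Os04g09520, whose LD replicates had 0.939 and 0 CPM at 08:00, 0 and 0.0505 CPM at 00:00 and 0 and 0.285 CPM at 04:00. LOC_Os01g52470 had 3 counts (0.166 CPM) in LD00:00 replicate 1, so the limit may hold for its call at 00:00. For these 5 loci the call at 20:00 was lost without LD20:00 replicate 2, with adjusted p of up to 0.2012, and that at 04:00 without LD04:00 replicate 1 in all but LOC_Os01g52470, with adjusted p of up to 0.2063. Only LOC_Os02g42450 was called lower at 3 times. It had 33.8 and 33.1 CPM at SD12:00, but 1.08 and 1.12 CPM in SD against 14.1 and 8.60 CPM in LD at 04:00 (log2 fold change -3.53 ± 0.33 SE, adjusted p = 0.00299), so noon was the only SD time at which it exceeded every LD library. The 04:00 call of LOC_Os02g42450 held without each library in turn, while that at 08:00 was lost without either LD08:00 replicate (adjusted p up to 0.0612) and that at 20:00 without SD20:00 replicate 2 or LD20:00 replicate 2 (up to 0.288). RC24 (LOC_Os06g51060) and LOC_Os03g47230 were called lower at 08:00 and 04:00, and for RC24 the call at 04:00 (adjusted p = 0.0187) was lost without LD04:00 replicate 1 or LD04:00 replicate 2, with an adjusted p of up to 0.119, and the call at 08:00 (adjusted p = 0.0236) without SD08:00 replicate 2 or either LD08:00 replicate, with an adjusted p of up to 0.107. Both calls of LOC_Os03g47230 were lost without either LD replicate of that time, with adjusted p of up to 0.178. The other 13 members called lower, LOC_Os02g51930 and LOC_Os07g48550 among them, were called at 1 time, and the calls of these 2 were lost without either LD replicate of that time. In 35 members (17.5%) and in 1.53% of expressed genes, each of the 10 other SD libraries was above each of the 12 LD libraries.

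The LD day itself was the second question beyond the noon peak. Of 151 members tested over the 6 LD times, 76 changed (edgeR quasi-likelihood F-test, adjusted p under 0.05), where 44.3% of all tested genes did. The count was 44 without LD04:00 replicate 1 and 47 without LD04:00 replicate 2. The direction was uneven: in LD anthers 12:00 was lower than 04:00 in 71 members and higher in 10, where 14.1% of all tested genes were called lower and 10.4% higher (24.5% in all). The LD libraries entered the rule only as an upper bound on the LD means. Of the 200 members, 98 (49%) had their highest LD level at 04:00, beside 20.7% of expressed genes. Among the 136 members with an LD group mean of at least 1 CPM the figure was 84 (61.8%), beside 20.6% of the expressed genes that met the same condition. The share lowest at 12:00 in LD was 37%, near the 36.1% of expressed genes. The green marker OsCAB1R, which the paper describes as clock-controlled, had 210 and 259 CPM in LD12:00 and 47.9 and 43.9 CPM in LD04:00. The pollen sum was 2297 and 2577 CPM in LD12:00 and 819 and 1281 CPM in LD04:00. The part of both markers in the difference of the members between these times was not tested.

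Each of the 10 most abundant members was called lower in LD12:00 than in LD04:00. The endoglucanase LOC_Os08g29770 had 118 and 76.5 CPM in LD12:00 and 498 and 421 CPM in LD04:00 (log2 fold change -2.16 ± 0.18 SE, adjusted p = 8.18e-05). The beta-amylase LOC_Os07g35940 had 131 and 95.1 CPM in LD12:00 and 961 and 808 CPM in LD04:00 (-2.88 ± 0.33, adjusted p = 0.000249), and the lipase LOC_Os08g45150 differed by -2.34 ± 0.38 (adjusted p = 0.00143). ONI2 (LOC_Os10g28060) and LTPL25 (LOC_Os11g02350) were lower at LD12:00 by log2 fold changes of -1.79 ± 0.32 and -1.25 ± 0.23, with adjusted p of 0.00228 and 0.00266. All 5 kept the call when each LD library was left out in turn, as did LOC_Os10g05990, LOC_Os03g18130 and LOC_Os04g58200. The call of OsXTH8 (LOC_Os08g13920, -1.12 ± 0.42, adjusted p = 0.0499) was lost in 10 of these 12 fits, with adjusted p of up to 0.2135, and that of LOC_Os10g05930 (-3.08 ± 0.79, adjusted p = 0.0112) without LD12:00 replicate 1 or LD12:00 replicate 2, with adjusted p of up to 0.0624. The opposite order was found in OsPRR95 (LOC_Os09g36220), with 50.9 and 62.7 CPM in LD12:00 and 15.4 and 17.6 CPM in LD04:00 (1.89 ± 0.17, adjusted p = 0.000107), and in OsPIP2;4 (LOC_Os07g26630), with 3.29 and 12.0 CPM in LD12:00 and 1.41 and 1.38 CPM in LD04:00 (2.58 ± 0.57, adjusted p = 0.00556). Both stayed called without each LD library in turn, with adjusted p of at most 0.00242 and 0.0452. Over all members, leaving out LD libraries in turn gave 55 to 88 calls between LD12:00 and LD04:00.

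**Figure D5:**
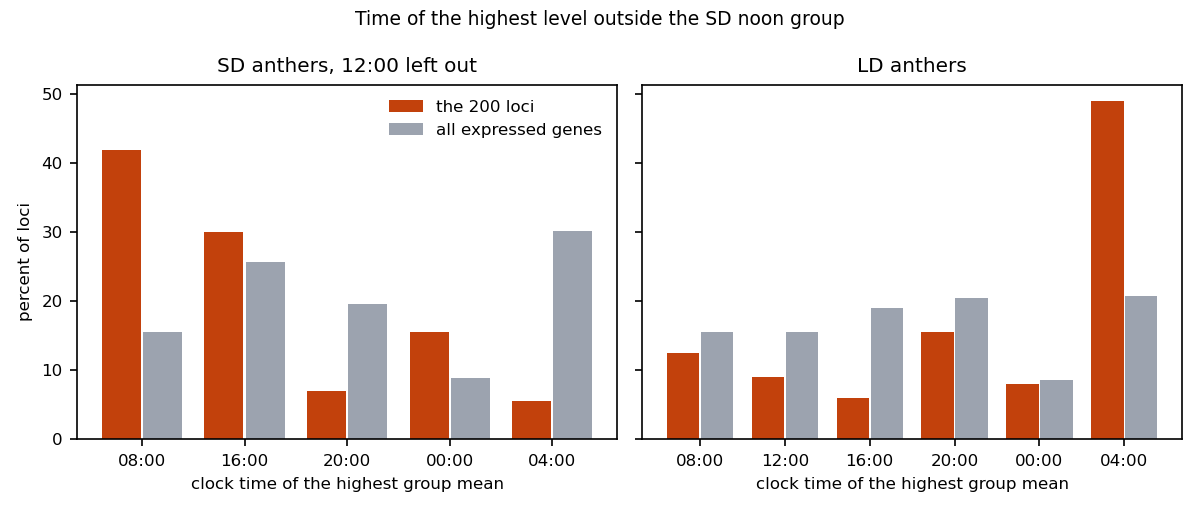
Percent of loci whose highest group mean falls at each clock time, for SD anthers with 12:00 left out and for LD anthers, over the 200 loci and over 23519 expressed genes; bars start at 0. In SD the 200 loci are most often highest at 08:00 (42%) and in LD at 04:00 (49%).

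With 12:00 left out, the SD group means of the members leaned to the daytime. The highest remaining SD time was 08:00 for 84 members (42%) and 16:00 for 60 (30%), beside 15.6% and 25.7% of expressed genes, and the lowest was 04:00 for 95 members (47.5%), beside 20.7%. These times entered the rule as an upper bound only. Few members passed a test of change over the 5 times: 5 of 177 tested, where 1.33% of all tested genes did. The 5 were OsPRR95 (LOC_Os09g36220), LOC_Os05g06780, LOC_Os04g58200, LOC_Os02g40260 and LOC_Os03g43440, with edgeR adjusted p of 0.000166, 0.00456, 0.0144, 0.0250 and 0.00265, of which LOC_Os05g06780, LOC_Os02g40260 and LOC_Os03g43440 are named only because the count was small, after their values were seen. The call of LOC_Os04g58200 was lost without any 1 of the SD08:00 or SD20:00 libraries, with adjusted p of up to 0.0852. The tally ranged from 3 to 10 when single libraries were left out: 3 without SD08:00 replicate 2, SD20:00 replicate 1 or SD20:00 replicate 2, and 10 without SD00:00 replicate 2. DESeq2 found 21.

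Within the study's lists the members did not always follow their group. At 08:00 the carbohydrate list had 85 genes called higher and 107 lower in SD of 408 tested, while its members were called higher in 6 and lower in 1 of 11 tested. The transport list had 84 called higher and 184 lower of 646, and its members 7 and none of 9. The lipid list had 59 and 39 of 221, and its members 4 and none of 6. The list of 51 anther genes had 21 called higher and 30 lower both at 08:00 and at 04:00, and its 7 members were called higher at both times. At 04:00 the lists leaned to LD, with 12 higher and 109 lower of 410 carbohydrate genes, 27 and 192 of 636 transport genes and 7 and 66 of 221 lipid genes, and their members were called higher in 0, 2 and 1 and lower in 1, 1 and 1. The study chose these lists on the same libraries, and the members were chosen for a high SD level at noon, so neither count is independent of the other.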

How the data were processed

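Anther RNA was sequenced on the Ion Proton platform, and the authors deposited a table of whole-number read counts per locus (55986 loci, 24 libraries). Per the study's methods, low-quality reads were removed and the rest mapped with MapSplice to the Nipponbare genome of the MSU annotation project, version 7.0. The counting tool, the strand setting and the handling of reads that match several loci were not given in the sources used here, so reads of related, overlapping or antisense loci may be shared. Rows included 185 loci outside the numbered chromosomes. Totals per library were 18043740 to 27529649 counts, so that 3 counts equal 0.109 to 0.166 CPM, and this floor covers counting error only. The members and gene lists were chosen with earlier results of these data known.

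CPM used column sums and log2 values a pseudocount of 1. Tests used edgeR 4.0.16 (R 4.3.3) with TMM scaling and filterByExpr, separately for the 4 libraries of a time point, the 12 LD libraries and the 10 SD libraries other than 12:00, with adjustment over all tested genes. Called loci had an adjusted p under 0.05 together with a difference of 1 or more on the log2 scale in either direction, and for changes over several times only the p was used. The SE was taken from the fold change and its F statistic, as their ratio after the square root of F. The steps were tested on simulated data. DESeq2 1.42.0, other scalings, no filter, a replicate block, 1 joint fit and leaving out each library were tried as alternatives.

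Named loci were the 15 with the largest margin, the 10 most abundant at SD12:00, 3 on each side of the limit, the 3 leading members of each annotation list, up to 5 called most often in each direction, and members with a symbol in the paper. Names and descriptions came from the paper's text and sheets. None of the locus identifiers was found in the RefSeq table (0 matched), so no sequence or coordinate is printed.

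Replicate numbers come from the labels, which do not tie numbers to a shared plant or batch. Same-numbered SD and LD libraries had deviations that correlated between -0.19 and 0.24 over the times, so the numbers were not taken to pair the samples.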

Additional observations from a re-analysis of the deposited data

Results flagged for a closer look

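For 11 of the named loci both SD libraries lay above both LD libraries at one time other than noon and below both at another. With 2 libraries a group such separations are common. Over all members the pattern was found in 44 (22%), so the named loci do not stand out by having it. The like share of expressed genes was not computed, so the pattern is not shown to be special to the members. The difference between the times was not tested. The gap between the largest positive and the largest negative SD minus LD difference, in log2(CPM+1), was 4.84 for LOC_Os10g05820 (3.78 at 00:00 and -1.06 at 04:00), 3.68 for the lipase LOC_Os08g45150 (3.14 at 08:00 and -0.55 at 04:00), 2.72 for LOC_Os04g58200 and 2.50 for OsMST6 (LOC_Os07g37320, 0.90 at 16:00 and -1.60 at 04:00). It was 2.04 for LOC_Os09g19650, 1.64 for the endoglucanase LOC_Os08g29770, 1.33 for LOC_Os02g43820 and 1.18 for LOC_Os04g42860, in each with the negative value at 04:00. It was 1.23 for chi11 (LOC_Os03g04060), with the negative value at 00:00. It was 0.95 for CHIT1 (LOC_Os02g39330) and 0.26 for LOC_Os03g42235, both with the negative value at 08:00 and both under 1 CPM in every library compared.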

How the results depend on the processing

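Of the 200 loci, 134 to 190 were also chosen under another scaling, pseudocount or a rule on single libraries, and 148 to 199 when single libraries were left out, with 148 without SD08:00 replicate 1. Counts of members called moved by over 1.5 times as follows, and the cause was not tested. At 16:00 DESeq2 called 72, no count filter 67 and 1 fit of all 24 libraries 80, against 0. At 20:00 DESeq2 called 63, library totals without TMM 16 and no filter 57, against 37. At 00:00 DESeq2 called 77, no filter 71 and the joint fit 87, against 42. Over the 5 SD times DESeq2 called 21 and no filter 63, against 5.

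With the replicate number as a block the calls were 90 at 16:00, 24 at 20:00 and 100 at 00:00, and its other counts stayed within 1.5 times of the count without it. At 08:00 a crossed pairing, added after seeing the data, gave 110.

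Leaving out single libraries gave 39 to 127 members called at 08:00, 191 to 196 at 12:00, 0 to 58 at 16:00 (58 without LD16:00 replicate 1), 4 to 69 at 20:00, 30 to 79 at 00:00 (79 without SD00:00 replicate 2), 7 to 58 at 04:00, 44 to 91 over the LD times (44 without LD04:00 replicate 1 and 47 without LD04:00 replicate 2), 55 to 88 between LD12:00 and LD04:00 and 3 to 10 over the SD times. Where this left 1 library in a group, that library was assumed to vary like the others.

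Library totals without TMM moved the median of all genes by up to 0.27 at 12:00, and at 04:00 changed the split of all genes called to 1634 higher and 2231 lower, against 960 and 2749. At 12:00 that split was 6304 and 3662, against 4864 and 4687. Of 122 single-locus tests none changed direction under any alternative, and 30 fits under alternatives other than leaving out libraries lost a call, while leaving out single libraries lost a call in 142 fits and left the call or its absence as it was in 702.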
